A study of Mus musculus with 20 samples.

Results

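The major urinary protein genes of the mouse were followed in the liver of the giant, obese Titan line. The genes are *Mup1*, *Mup3*, *Mup7*, *Mup11*, *Mup17*, *Mup20* and *Mup21*, 7 of the 55573 gene IDs in the count files. They were chosen by name, and each symbol was matched to its Ensembl ID in the GENCODE M21 annotation of GRCm38. That annotation holds 49 *Mup* genes and pseudogenes, 22 of them protein-coding, so 15 coding genes and 27 pseudogenes of the family lie outside the list. All 7 genes passed the filter on low counts.

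Major urinary proteins are small secreted lipocalins, barrel-shaped proteins that hold volatile pheromones in a central pocket. Hepatocytes make them, the blood carries them to the kidney, and mice excrete them in urine as scent signals. Their genes form a cluster of recent duplicates and are known as genes that male liver expresses more than female liver, under growth hormone secreted in pulses, its transducer STAT5B, and androgens.

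Liver RNA was sequenced from 20 mice, 5 in each of 4 groups: Titan mice of 11 weeks, control mice of 11 weeks, Titan mice of 19–21 weeks and control mice of 19–21 weeks. Titan (also DU6) mice come from a line selected for body size and weight for 45 years, and the control line (FZTDU) was bred from the same founder population without selection. All groups had free access to a standard breeding diet. Neither line is inbred, the Titan line was at one time rebuilt from a small number of founders, and each library is 1 animal, so animals of a group differ in genotype.

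The study's section on liver expression concerns males. In all 20 libraries the Y-linked genes *Ddx3y*, *Eif2s3y*, *Kdm5d* and *Uty* had at least 193 reads each, and *Xist*, the RNA that silences an X chromosome in females, had at most 6. The summed level of 10 hepatocyte markers lay between 69960 and 104800 CPM (counts per gene scaled to a fixed total of reads on genes) in every mouse. Reads on genes numbered 6794935 to 23295028 per mouse, with a median of 12547300. The 7 genes together had 43353 to 201142 reads per mouse, 0.362% to 0.936% of the reads on genes. The sequencing pool of each library is not given in the sources used here, so no value could be computed within pools.

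The genes all lie on the minus strand of chromosome 4 (GRCm38). In order along the chromosome they are *Mup7* (ENSMUSG00000073842, chr4:60066469-60070475), *Mup1* (ENSMUSG00000078683, chr4:60498012-60501960), *Mup11* (ENSMUSG00000073834, chr4:60658466-60662411), *Mup17* (ENSMUSG00000096688, chr4:61591929-61595871), *Mup20* (ENSMUSG00000078672, chr4:62050234-62054158), *Mup3* (ENSMUSG00000066154, chr4:62083476-62087342) and *Mup21* (ENSMUSG00000066153, chr4:62147932-62150863). Of the 49 family entries, 48 are on this chromosome, and the cluster spans 2.19 Mb. None of the 7 overlaps another annotated gene on the same strand.

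The coding sequences fall into 3 kinds, which matter here because only reads with a single place in the genome were counted. *Mup1*, *Mup7*, *Mup11* and *Mup17* were 98.3% to 99.1% identical to each other over their coding bases. *Mup20* was 90.1% to 91.3% identical to these 4, and *Mup3* and *Mup21* were 94.8% identical to each other and 82.1% to 84.7% identical to the 4. The 60 coding bases that start 440 bases before the coding end are given below, with capitals where a base differs from *Mup17*. They lie within 1 exon of each gene and are written in the direction of the transcript (minus strand, GENCODE M21 transcripts). Their positions in GRCm38 are chr4:61595263-61595322 in *Mup17*, chr4:60661800-60661859 in *Mup11*, chr4:60501352-60501411 in *Mup1*, chr4:60069803-60069862 in *Mup7*, chr4:62053550-62053609 in *Mup20*, chr4:62086870-62086929 in *Mup3* and chr4:62150265-62150324 in *Mup21*.
Mup17: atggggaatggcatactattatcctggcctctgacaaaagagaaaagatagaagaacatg
Mup11: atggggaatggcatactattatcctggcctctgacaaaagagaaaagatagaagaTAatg
Mup1: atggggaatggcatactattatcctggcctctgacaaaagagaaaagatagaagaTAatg
Mup7: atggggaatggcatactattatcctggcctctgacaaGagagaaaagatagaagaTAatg
Mup20: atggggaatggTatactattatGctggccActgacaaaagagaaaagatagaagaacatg
Mup3: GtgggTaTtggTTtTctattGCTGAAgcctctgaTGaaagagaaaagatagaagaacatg
Mup21: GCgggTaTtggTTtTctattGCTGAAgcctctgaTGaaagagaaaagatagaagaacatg

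In this window *Mup11* and *Mup1* are the same and differ from *Mup17* at 2 bases. *Mup7* and *Mup20* differ from it at 3, *Mup3* at 14 and *Mup21* at 15. By count the window thus sets *Mup3* and *Mup21* apart, but not *Mup20*. Over all 440 bases to the coding end, *Mup20* differed from *Mup17* at 43 bases, and *Mup1*, *Mup7* and *Mup11* at 5 or 6. Of all stretches of 100 bases in the transcripts of each gene, the share found in no other gene's transcript was 97.8% for *Mup3*, 95.5% for *Mup21*, 61.2% for *Mup20*, 44.3% for *Mup1*, 40.6% for *Mup17*, 29.4% for *Mup11* and 23.9% for *Mup7*. With 50 bases the shares were 86.7%, 80.7%, 49.5%, 38.4%, 21.9%, 22.2% and 13.3% in the same order. The read length is not given in the sources used here, and reads that fit several positions are not in the counts (the files list 0 of them). The counts of *Mup1*, *Mup7*, *Mup11* and *Mup17* therefore rest on a minority of their bases and understate their level. Those of *Mup3* and *Mup21* rest on most of theirs, at least 95.5% by 100-base stretches and at least 80.7% by 50-base stretches.

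RefSeq promoters (250 bases before to 50 after the listed gene start, GRCm38.p6) were given for 5 of the 7 genes. Those of *Mup3*, *Mup11*, *Mup17* and *Mup21* share an unbroken run of 28 bases, shown in capitals at the end of the windows below. The run holds the letters TATAAG. It starts 10 to 33 bases before the gene start that RefSeq lists. By the GENCODE M21 positions given above, the whole run lies inside each of these genes, so the annotations place the gene start differently. Whether the run acts as a TATA box was not tested. The windows lie on the minus strand at chr4:62087309-62087396 (*Mup3*), chr4:62150830-62150917 (*Mup21*), chr4:60662378-60662465 (*Mup11*) and chr4:61595838-61595925 (*Mup17*).
Mup3: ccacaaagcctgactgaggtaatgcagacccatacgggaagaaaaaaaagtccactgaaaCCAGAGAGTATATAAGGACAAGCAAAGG
Mup21: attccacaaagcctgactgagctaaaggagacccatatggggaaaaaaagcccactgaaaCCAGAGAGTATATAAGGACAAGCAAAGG
Mup11: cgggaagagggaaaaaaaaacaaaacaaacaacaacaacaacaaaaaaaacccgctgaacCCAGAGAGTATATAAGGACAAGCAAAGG
Mup17: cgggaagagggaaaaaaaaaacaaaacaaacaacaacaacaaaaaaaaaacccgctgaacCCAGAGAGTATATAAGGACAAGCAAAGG

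Of 32851 listed promoters, 10 (0.0304%) held this run, all of them of *Mup* genes, and the listed window of *Mup7* did not. The promoters of *Mup3* and *Mup21* were 90.2% identical and those of *Mup11* and *Mup17* 84.9%. The letters TTCNNNGAA, the consensus that STAT5 binds, were searched on both strands. They were in 8.30% of all listed promoters and in 0 of the 5 promoters of these genes, which says only that the letters are not in these windows.

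Titan mice of 11 weeks had lower levels of 4 of the 7 major urinary protein genes than control mice of that age, and the size of the difference varied widely between the genes. *Mup21* was 7.93-fold lower, *Mup20* 5.78-fold, *Mup7* 2.47-fold and *Mup3* 1.44-fold, while *Mup1*, *Mup11* and *Mup17* did not pass the test. At 19–21 weeks none of the 7 passed it. Levels are given as CPM scaled by the TMM method of edgeR, and the test is its two-sided quasi-likelihood test. All 20 mice entered 1 fit of 4 groups, Benjamini–Hochberg adjustment ran over all 13783 genes tested, and the threshold was 0.05. The tissue was whole liver, so fewer cells that make a transcript and less of it per cell cannot be told apart.

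**Figure D1:**
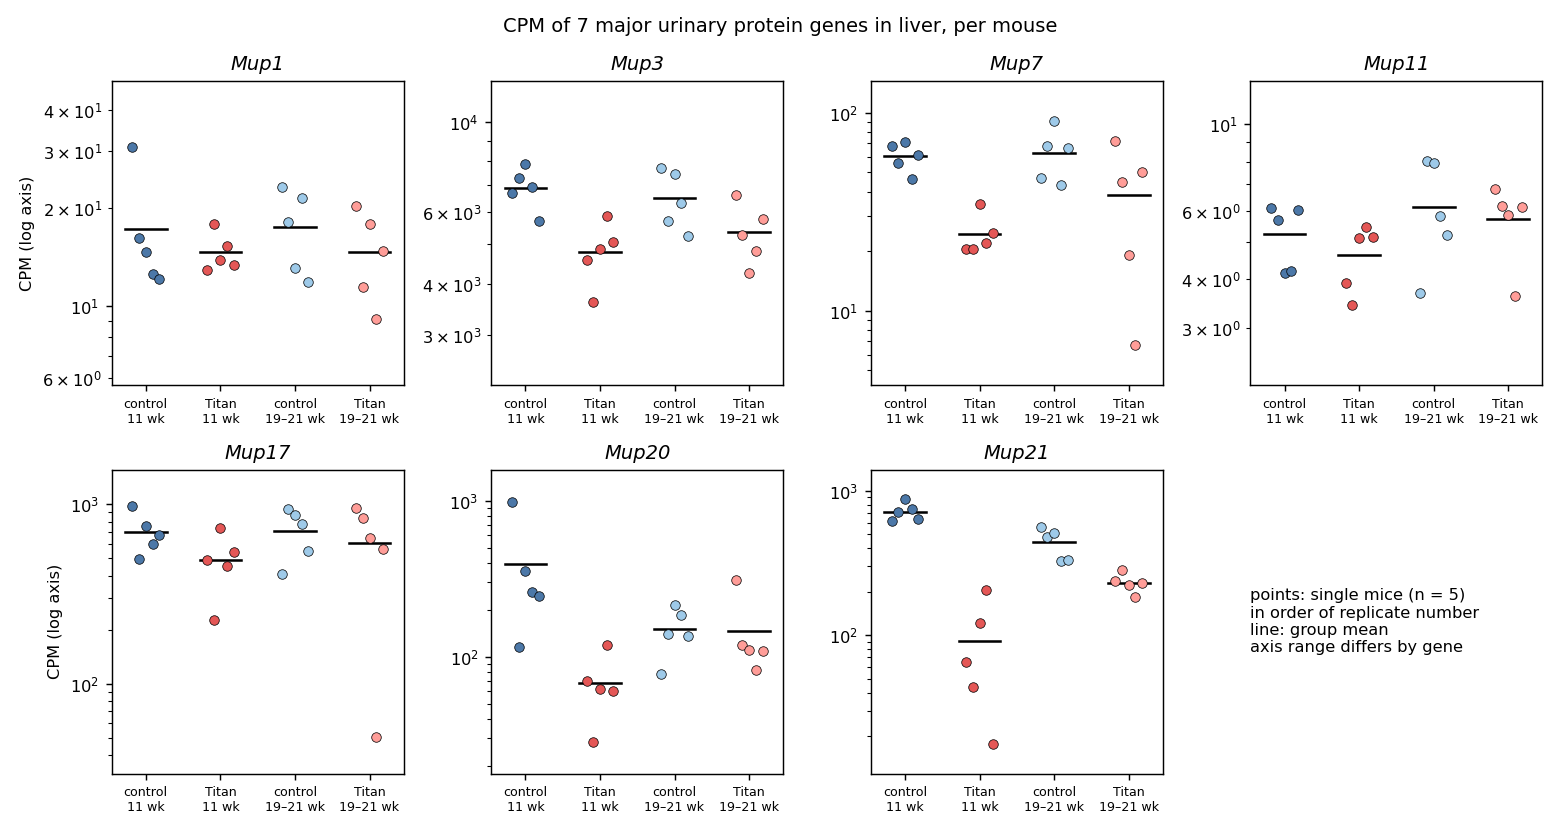
CPM of each of the 7 genes (y axis, log scale, range set per gene) in the 5 mice of each group (x axis), with points for single mice in order of replicate number and a line for the group mean. All 11-week-old Titan mice lie below all control mice of that age for *Mup7* and *Mup21*, and a 19–21-week-old Titan mouse stands low for *Mup17* at 50.4 CPM.

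*Mup21* encodes a protein close to that of *Mup3* and had the largest difference. In the 5 control mice of 11 weeks it stood at 618, 716, 874, 745 and 634 CPM. In the 5 Titan mice of that age it stood at 65.0, 43.7, 121, 207 and 17.5 CPM. The groups did not overlap (90.8 ± 75.2 CPM in Titan mice against 717 ± 103 CPM in controls, mean ± SD, n = 5 each). Relative to the mean, the SD was 82.8% in Titan mice and 14.3% in controls. On the log2 scale the change was -2.99 (standard error 0.42, edgeR adjusted p = 5.248e-05).

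In the older mice *Mup21* stood at 562, 481, 509, 326 and 329 CPM in control mice and at 235, 282, 221, 185 and 229 CPM in Titan mice. Again no Titan mouse reached any control mouse. The log2 fold change of -0.94 (standard error 0.39) had an unadjusted p of 0.0251 and an edgeR adjusted p of 0.138, and did not pass the threshold. It did pass once the fit held only the older mice (log2 fold change -0.94, edgeR adjusted p = 0.00668) and without the 11-week-old Titan mouse with replicate number 5 (edgeR adjusted p = 0.0462).

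*Mup20* encodes darcin, the male pheromone protein that attracts females. It stood at 985, 115, 354, 262 and 245 CPM in 11-week-old control mice and at 70.2, 28.5, 62.5, 119 and 60 CPM in Titan mice of that age. Of the 5 Titan mice, 4 were below all controls, and the highest Titan mouse was just above the lowest control. The log2 fold change was -2.53 (standard error 0.49, edgeR adjusted p = 0.00132). Without the control mouse at 985 CPM it was -1.85 (edgeR adjusted p = 0.00417).

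The same gene stood at 77.6, 140, 216, 186 and 136 CPM in 19–21-week-old control mice and at 310, 119, 111, 82.4 and 108 CPM in Titan mice of that age. These groups overlapped over most of their range, with a log2 fold change of -0.05 (standard error 0.47, edgeR adjusted p = 0.962). Without the Titan mouse at 310 CPM the log2 fold change was -0.53 (edgeR adjusted p = 0.526).

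*Mup3* held most of the unique reads of these genes, 71.4% to 93.5% of their summed CPM in each mouse. It stood at 6699, 7304, 7884, 6905 and 5719 CPM in 11-week-old controls and at 4582, 3608, 4863, 5877 and 5076 CPM in 11-week-old Titan mice. Of the Titan mice, 4 were below all controls and the fifth was above the lowest control. The log2 fold change was -0.52 (standard error 0.14, edgeR adjusted p = 0.0169), and without the lowest Titan mouse (replicate number 2) it was -0.44 with an edgeR adjusted p of 0.0548, past the threshold no longer.

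*Mup3* at 19–21 weeks stood at 7702, 5724, 7442, 6321 and 5248 CPM in controls and at 6627, 5283, 4247, 4812 and 5790 CPM in Titan mice. The groups overlapped, with a log2 fold change of -0.28 (standard error 0.14, edgeR adjusted p = 0.247).

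Among the 4 near-identical genes, which encode the common urinary proteins, *Mup7* changed at 11 weeks. It stood at 67.7, 55.8, 71.6, 46.3 and 61.3 CPM in controls and at 20.4, 20.6, 34.6, 21.9 and 24.8 CPM in Titan mice, with no overlap. The log2 fold change was -1.31 (standard error 0.37, edgeR adjusted p = 0.0211), and it lost the call without the Titan mouse with replicate number 1 (adjusted p = 0.0529) or 2 (adjusted p = 0.0540). In the older groups controls ranged from 43.2 to 90.4 CPM and Titan mice from 6.75 to 72.2 CPM, with overlap (log2 fold change -0.72, standard error 0.37, edgeR adjusted p = 0.243).

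*Mup17* was the most abundant of these 4 by unique reads. At 11 weeks it stood at 973, 492, 759, 603 and 671 CPM in controls and at 486, 227, 738, 451 and 543 CPM in Titan mice, and the groups overlapped (log2 fold change -0.52, standard error 0.45, edgeR adjusted p = 0.501). In the older groups it stood at 409, 939, 874, 779 and 548 CPM in controls and at 946, 843, 648, 50.4 and 561 CPM in Titan mice. A single Titan mouse, with replicate number 4, was far below the others of its group, and the log2 fold change over all mice was -0.22 (standard error 0.45, edgeR adjusted p = 0.808). This mouse was also the lowest of its group for *Mup1*, *Mup7*, *Mup11*, *Mup20* and *Mup21*, but not for *Mup3*. For *Mup7* it stood at 6.75 CPM, where the next stood at 19.2 CPM. Outside the list it was the lowest of its group for *Mup2*, *Mup6*, *Mup9*, *Mup14*, *Mup18* and *Mup-ps18* too.

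*Mup1* and *Mup11* had the fewest unique reads. At 11 weeks *Mup1* ranged from 12.1 to 30.8 CPM in controls and from 12.9 to 17.9 CPM in Titan mice (log2 fold change -0.23, standard error 0.25, edgeR adjusted p = 0.606). *Mup11* ranged from 4.16 to 6.07 CPM in controls and from 3.44 to 5.46 CPM in Titan mice (log2 fold change -0.17, standard error 0.21, edgeR adjusted p = 0.657). Both groups overlapped for both genes, also at 19–21 weeks, where *Mup1* ranged from 11.8 to 23.2 CPM in controls and 9.11 to 20.3 CPM in Titan mice. *Mup11* then ranged from 3.69 to 8.03 CPM in controls and 3.63 to 6.80 CPM in Titan mice. The log2 fold changes at that age were -0.26 (standard error 0.26, edgeR adjusted p = 0.571) for *Mup1* and -0.12 (standard error 0.21, edgeR adjusted p = 0.775) for *Mup11*.

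Counted together, 4 of 7 genes were lower in 11-week-old Titan mice and 0 of 7 higher, where 7.69% of all 13783 genes tested were lower and 7.23% higher. All 7 log2 fold changes were below 0, with a median of -0.52, beside -0.02 over all genes tested. Titan and control ranges were separate for 2 of the 7, against 11.9% of all genes. DESeq2 also called 4 of the 7. Without the 11-week-old Titan mouse with replicate number 2 the count was 2, *Mup20* and *Mup21*.

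At 19–21 weeks edgeR called 0 of 7, where 4.88% of all genes were lower and 4.24% higher in Titan mice. At an unadjusted p under 0.05 there was 1 (*Mup21*), and DESeq2 called 0. All 7 log2 fold changes were again below 0, with a median of -0.26 beside 0.01 over all genes tested, and 1 of 7 had no overlap, where 7.63% of all genes had none.

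**Figure D2:**
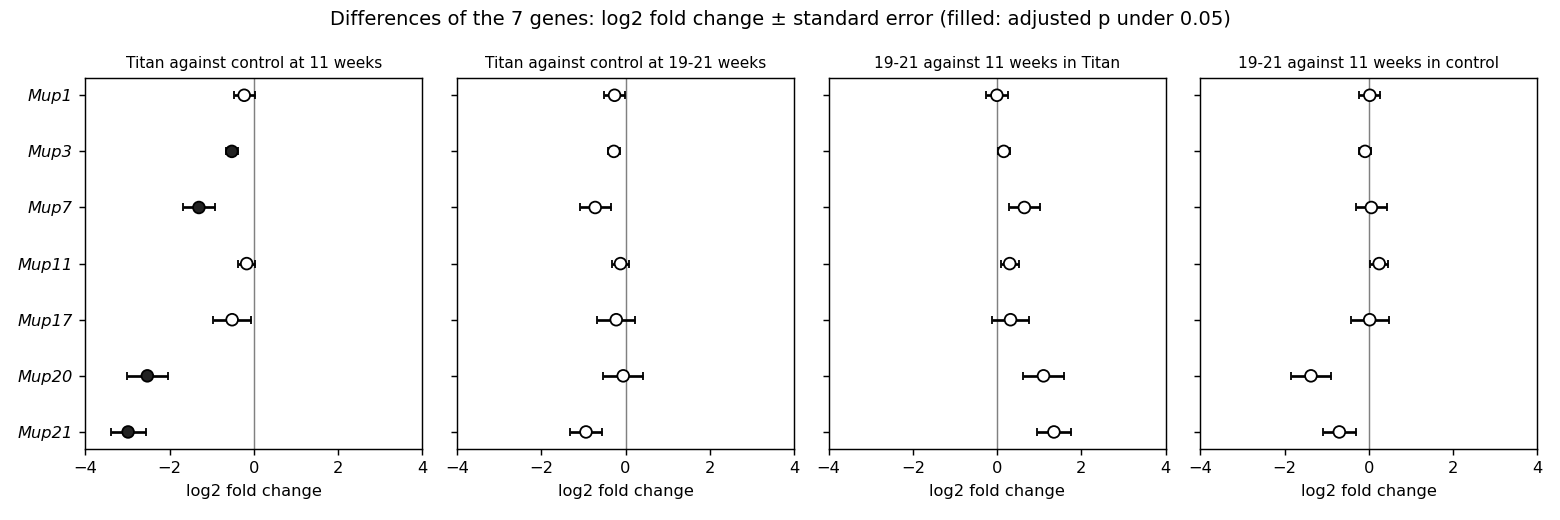
log2 fold change (x axis) of each gene (y axis) in 4 comparisons, with bars of 1 standard error and filled points for an edgeR adjusted p under 0.05. The 4 filled points are *Mup3*, *Mup7*, *Mup20* and *Mup21* at 11 weeks, all below 0.

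Between the ages, none of the 7 genes passed the test in either line. In Titan mice 6 of 7 log2 fold changes (19–21 against 11 weeks) were above 0, with a median of 0.32 beside 0.02 over all genes tested. The largest were those of *Mup21* (1.35, standard error 0.39, edgeR adjusted p = 0.0961) and *Mup20* (1.10, standard error 0.48, edgeR adjusted p = 0.264). The highest 11-week-old Titan mouse for *Mup21*, at 207 CPM, exceeded only the lowest of the 19–21-week-old Titan mice. Without this mouse (replicate number 4) the log2 fold change was 1.90 and passed (edgeR adjusted p = 0.00522), and with DESeq2 it was 1.33 and passed (adjusted p = 0.0363). Over all genes, 1.25% were called in this comparison, against 0 of the 7. Both *Mup20* and *Mup21* had an unadjusted p under 0.05, and DESeq2 called 1 of the 7. No gene of the 7 had separate ranges at the 2 ages, while 2.97% of all genes did.

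In control mice edgeR called 0 of 7, with 1 at an unadjusted p under 0.05 (*Mup20*) and 0 by DESeq2, and 0.0871% of all genes differed. The median log2 fold change of the 7 was 0.02, beside 0.00 over all genes. *Mup21* was between 618 and 874 CPM at 11 weeks and between 326 and 562 CPM at 19–21 weeks, without overlap, at a log2 fold change of -0.70 (standard error 0.39, edgeR adjusted p = 0.862). It was 1 of the 7 without overlap, where 1.02% of all genes had none. *Mup20* had a log2 fold change of -1.37 (standard error 0.48, edgeR adjusted p = 0.576), and of -0.69 without the 11-week-old control mouse at 985 CPM (edgeR adjusted p = 0.838).

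Whether age acted differently in the lines was tested as an interaction (age effect in Titan minus that in control). It was 2.48 on the log2 scale for *Mup20* (standard error 0.67) and 2.05 for *Mup21* (standard error 0.55), each with an edgeR adjusted p of 0.216. The other 5 lay between -0.03 and 0.59. No gene of the 7 passed, where 0.00726% of all genes did. At an unadjusted p under 0.05 there were 2, and DESeq2 called 1 (*Mup21*, 2.04, adjusted p = 0.0496). Without the 11-week-old Titan mouse with replicate number 4 the edgeR test also called *Mup21* (2.60, adjusted p = 0.0158). The gap between the lines at 11 weeks is thus not shown by the edgeR test to differ from that at 19–21 weeks.

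Summed over the 7 genes, 11-week-old control mice had 9379, 8705, 9961, 8578 and 7348 CPM and 11-week-old Titan mice 5240, 3949, 5838, 6695 and 5740.5 CPM, with every Titan mouse below every control. The sums at 19–21 weeks were 8824, 7378, 9153, 7682 and 6345 CPM in controls and 8218, 6589, 5269, 5149 and 6759 CPM in Titan mice, and the groups overlapped. These sums are a description, with no test. They are mostly *Mup3*: without it, the other 6 genes summed at 11 weeks to 1892 ± 503 CPM in the control line and 692 ± 235 CPM in the Titan line (SD, n = 5 each). In the older mice they summed to 1389 ± 288 CPM in the control line and 1045 ± 468 CPM in the Titan line.

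**Figure D3:**
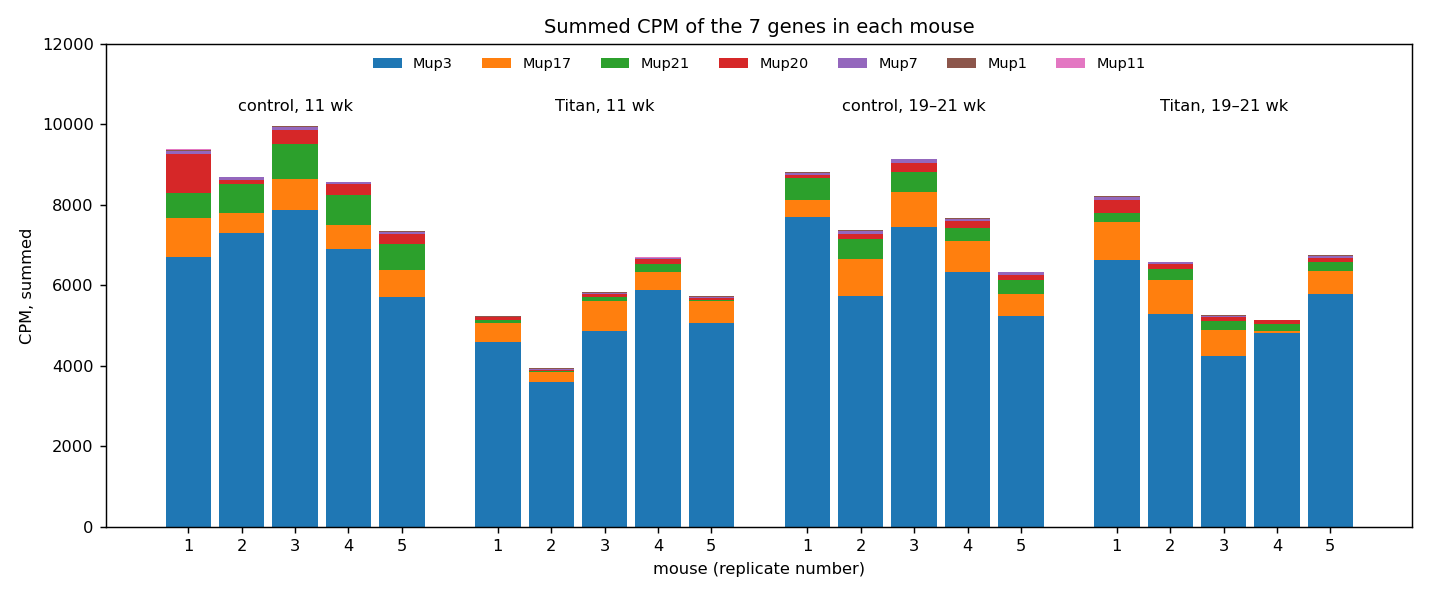
Summed CPM of the 7 genes (y axis, from 0) in each mouse (x axis, replicate number within group), with a colour for each gene. The 11-week-old Titan mice lie between 3949 and 6695 CPM, below the lowest 11-week-old control at 7348 CPM, and *Mup3* is the largest share of every bar.

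To compare levels between genes, CPM was divided by exon length (CPM per kb). In 11-week-old controls the order was *Mup3* (mean 6463 CPM per kb), *Mup21* (1060), *Mup17* (755), *Mup20* (423), *Mup7* (58.6), *Mup1* (10.9) and *Mup11* (3.31). The ranges of *Mup21* and *Mup17* overlapped, as did those of *Mup17* and *Mup20*, and all other neighbours stood apart. In 11-week-old Titan mice *Mup21* (134 CPM per kb) came after *Mup17* (528), and the ranges of *Mup17*, *Mup21*, *Mup20* (73.3) and *Mup7* (23.7) each overlapped that of the next. As a share of the summed CPM, *Mup21* made up 6.59% to 8.78% in 11-week-old controls and 0.305% to 3.09% in 11-week-old Titan mice. Shares and CPM per kb of the near-identical genes and of *Mup20* are understated, since reads they have in common with other genes are not counted. The full exon length was used. Of 100-base stretches, 95.5% were unique for *Mup21*, 61.2% for *Mup20* and 40.6% for *Mup17*, so the order among these genes may depend on it.

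With group means taken off, the levels of some of these genes varied together over the 20 mice. On the log2 scale (CPM + 0.5) Pearson's r was 0.83 between *Mup7* and *Mup17*, 0.71 between *Mup11* and *Mup17* and 0.63 between *Mup7* and *Mup11*. Without the 19–21-week-old Titan mouse with low *Mup17* these were 0.48, 0.68 and 0.45 (19 mice). Between *Mup3* and *Mup21*, the pair closest in sequence outside those 4, r was 0.38, and between *Mup20* and *Mup21* it was 0.21. These genes share libraries and part of their sequence, so r is a description only.

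By the same measure the genes outside the family most like the sum of the 7 included *Akr1c6* (r = 0.86), *Gm4756* (0.81), *Akr1c14* (0.78) and *Dync2h1* (0.78), over 20 mice. *Akr1c6* and *Akr1c14* encode hydroxysteroid dehydrogenases of the aldo-keto reductase family. For single genes the closest was *Cyp2d9* for *Mup21* (0.84), *Slc22a30* for *Mup3* (0.83), *Slc3a1* for *Mup20* (0.83), *Canx* for *Mup7* (0.90), *Hmox2* for *Mup17* (0.87), *Per3* for *Mup11* (0.80) and *A230072E10Rik* for *Mup1* (0.81). Each is the highest of the values over all genes tested, in few mice.

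The other 42 family entries had few unique reads: the 7 genes took 97% to 99.1% of all *Mup* reads in each mouse. Of the 42, 13 passed the filter on low counts, 10 coding genes and 3 pseudogenes. Some of them share much sequence with the 7. Of 50-base stretches, *Mup14* holds 59.5% of those of *Mup11*, and *Mup9* holds 46.5% of those of *Mup1*. The share of unique sequence was not computed for the 13, so how far their counts stand apart from those of the 7 is not known. In 11-week-old Titan mice 6 of these 13 were lower and 0 higher, where 7.69% of all genes tested were lower and 7.23% higher. All 13 log2 fold changes were below 0, with a median of -0.71 beside -0.02 over all genes tested. The 6 are *Mup2*, *Mup5*, *Mup12*, *Mup14*, *Mup-ps18* and *Mup-ps21*. At 19–21 weeks 1 of 13, *Mup2*, was lower, where 4.88% of all genes were. Between the ages none of the 13 passed in either line. Over fits that each left out 1 mouse, the count at 11 weeks ranged from 2 to 8. It was 2 without the control mouse with replicate number 1 or the Titan mouse with replicate number 4 or 5.

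Among these, *Mup2* was lower at both ages. It stood at 19.1, 11.6, 16.3, 17.9 and 13.7 CPM in 11-week-old controls and at 5.79, 6.41, 4.82, 4.77 and 5.17 CPM in 11-week-old Titan mice. In older mice it stood at 12.5, 20.4, 9.44, 14.4 and 13.3 CPM in controls and at 3.13, 5.37, 4.13, 1.18 and 6.71 CPM in Titan mice. The groups did not overlap at either age. The log2 fold changes were -1.54 (standard error 0.27, edgeR adjusted p = 0.000466) and -1.75 (standard error 0.29, edgeR adjusted p = 0.00054).

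*Mup14*, with the most reads outside the 7, had a mean of 73.0 ± 18.6 CPM in the controls of 11 weeks, against 41.6 ± 7.45 CPM in the Titan group (SD, n = 5 each; log2 fold change -0.81, edgeR adjusted p = 0.0246). *Mup-ps18*, a pseudogene, averaged 13.6 ± 3.19 and 7.64 ± 1.54 CPM (log2 fold change -0.83, edgeR adjusted p = 0.0406). *Mup6*, *Mup9* and *Mup18* did not pass at 11 weeks (log2 fold changes -0.71, -0.33 and -0.08, edgeR adjusted p = 0.0654, 0.586 and 0.945). *Mup12*, named after its values were seen, stood at 67.2 CPM in the control mouse that also had the highest *Mup20*, and at 1.04 to 2.499 CPM in the other 4. Its log2 fold change at 11 weeks was -3.16 (edgeR adjusted p = 0.0180) with that mouse and -0.17 (edgeR adjusted p = 0.761) without it.

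Lists of genes from the same biology, chosen with earlier results of these data known, were set beside these results. Of 17 tested genes known to be higher in male than female mouse liver (none a *Mup* gene), 15 were lower in 11-week-old Titan mice, 1 was higher and 1 did not pass. Of 14 tested genes known to be higher in female liver, 9 were higher, 1 was lower and 4 did not pass. The median log2 fold changes were -1.32 and 2.92, beside -0.02 over all genes tested, of which 7.69% were lower and 7.23% higher. At 19–21 weeks 3 of the 17 male-biased genes were lower and 0 higher (median -0.38), and 0 of the 14 female-biased genes passed (median 0.18). DESeq2 also called 0 of the 14 at that age, where edgeR called 4.88% of all genes lower and 4.24% higher. Between the ages in Titan mice, 3 male-biased genes (*Cyp7b1*, *Susd4* and *Gstp1*) were higher at 19–21 weeks. In that comparison 5 female-biased genes (*A1bg*, *Cyp2b13*, *Hao2*, *Acot3* and *Cyp2b9*) were lower, and 1.25% of all genes were called in either direction.

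Among the male-biased genes, *Cyp7b1*, an oxysterol hydroxylase, had a mean of 694 ± 185 CPM in the controls of 11 weeks, against 110 ± 41.7 CPM in the Titan group (SD, n = 5 each; log2 fold change -2.66, edgeR adjusted p = 7.279e-06). *Susd4*, a complement inhibitor, averaged 42.5 ± 16.6 and 3.04 ± 2.37 CPM (log2 fold change -3.89, edgeR adjusted p = 1.629e-05), and *Cyp2u1*, a fatty acid hydroxylase, 178 ± 40.7 and 41.8 ± 14.8 CPM (-2.09, edgeR adjusted p = 3.812e-05). The single member higher in Titan mice was *Slco1a1*, an organic anion transporter, with 1549 ± 14.6 CPM against 1025 ± 61.4 CPM (log2 fold change 0.60, edgeR adjusted p = 0.00051). The 3 that passed at 19–21 weeks were *Cyp2u1* (-1.38, edgeR adjusted p = 0.00317), *Keg1* (-0.59, 0.00354) and *Ugt2b1* (-0.50, 0.0172).

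Among the female-biased genes, *A1bg*, a secreted plasma glycoprotein, had the smallest p. It stood at 0, 0.0833, 1.73, 0.305 and 0.0690 CPM in 11-week-old controls and at 891, 1060, 7.01, 6.26 and 860 CPM in 11-week-old Titan mice. So 3 Titan mice were at least 860 CPM and the other 2 near 7 CPM, all above the controls. The groups differed by a log2 fold change of 10.01 (standard error 1.32, edgeR adjusted p = 2.821e-05). *Acot3*, an acyl-CoA thioesterase, rose by 4.25 on the log2 scale (edgeR adjusted p = 7.109e-05) and *Cyp17a1*, a steroid hydroxylase, by 3.15 (edgeR adjusted p = 9.153e-05). The single member lower was *Cyp3a16* (-1.42, edgeR adjusted p = 0.0123), which shares sequence with other *Cyp3a* genes.

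Within the 11-week-old Titan mice, the 3 with *A1bg* at 860 CPM or more had the 3 lowest *Mup21* levels (65.0, 43.7 and 17.5 CPM), and the 2 with *A1bg* near 7 CPM had the highest (121 and 207 CPM). The 19–21-week-old Titan mice had *A1bg* at 0.544 to 2.15 CPM and *Mup21* at 185 to 282 CPM. This pairing was picked after the values were seen and was not tested.

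**Figure D4:**
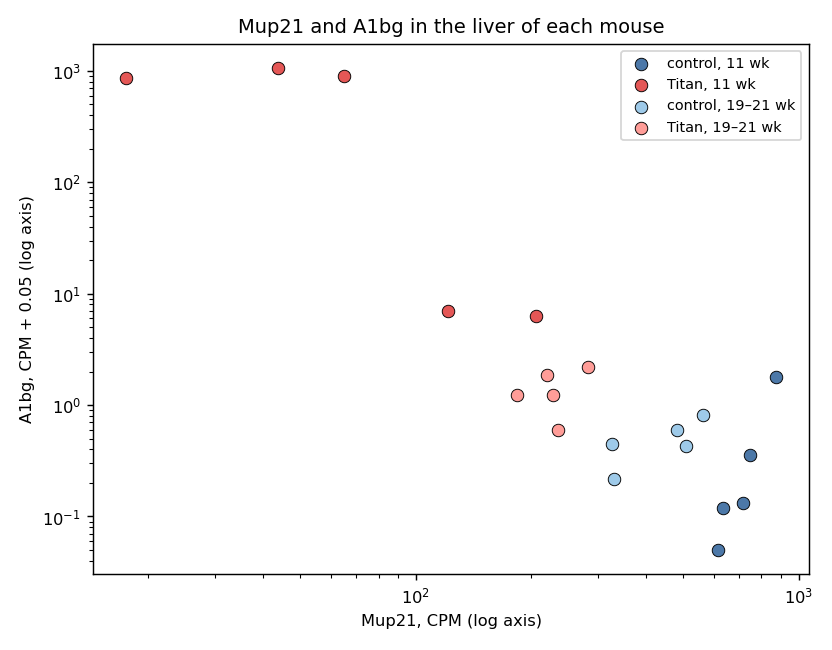
CPM of *Mup21* (x axis, log scale) and of *A1bg* plus 0.05 (y axis, log scale) in each of the 20 mice, coloured by group. The 3 mice with *A1bg* of at least 860 CPM are 11-week-old Titan mice with *Mup21* at or below 65.0 CPM, and the other 17 mice have *A1bg* at or below 7.01 CPM and *Mup21* at or above 121 CPM.

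Of 16 tested genes of growth hormone signalling, 1 was higher and 1 lower at 11 weeks, where 7.23% of all genes were higher and 7.69% lower, and 0 passed at 19–21 weeks (median log2 fold changes -0.18 and -0.02). *Stat5a*, a signal transducer of this pathway, was higher in 11-week-old Titan mice (0.49, edgeR adjusted p = 0.0384). *Igfbp2*, a carrier of insulin-like growth factors, was lower, at 26.1 ± 14.8 CPM against 178 ± 85.3 CPM (log2 fold change -2.78, edgeR adjusted p = 0.00096).

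The receptor gene *Ghr* had a mean of 761 ± 50.3 CPM in the Titan group of 11 weeks, against 902 ± 66.4 CPM in the control group (log2 fold change -0.25, edgeR adjusted p = 0.0552). *Stat5b* had a log2 fold change of -0.20 (edgeR adjusted p = 0.319), the growth factor gene *Igf1* 0.20 (0.341), and the pathway's inhibitors *Socs2* and *Cish* -1.07 (0.202) and -1.55 (0.107). The repressor *Bcl6* and *Zhx2*, a known regulator of *Mup* genes, had log2 fold changes of -0.16 (0.908) and -0.10 (0.632). None of these 7 passed at 19–21 weeks, with log2 fold changes from -0.79 (*Cish*) to 1.10 (*Socs2*).

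Among 18 tested liver transcription factors and hormone receptors, *Foxa2* was lower in 11-week-old Titan mice (log2 fold change -0.66, edgeR adjusted p = 0.0143), and 0 passed at 19–21 weeks. Among 9 tested lipocalins outside the family, 6 were lower and 1 higher at 11 weeks, where 7.69% of all genes were lower and 7.23% higher. *Rbp4*, the carrier of retinol, had a mean of 1399 ± 71.7 CPM in the Titan group, against 1997 ± 57.8 CPM in the control group (SD, n = 5 each; log2 fold change -0.51, edgeR adjusted p = 9.153e-05). *Apom*, an apolipoprotein, was lower at 11 weeks (-1.22, edgeR adjusted p = 0.000246) and at 19–21 weeks (-0.65, edgeR adjusted p = 0.0411). *Lcn2*, an iron-trapping protein of inflammation, was higher at both ages (1.62 and 1.71, edgeR adjusted p = 0.00242 and 0.00492), at no more than 4.96 CPM.

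*Ptgds*, a prostaglandin synthase, was lower at 11 weeks (-3.69, edgeR adjusted p = 0.00562), at levels from 0.345 to 14.4 CPM in controls and 0.0993 to 0.703 CPM in Titan mice. *C8g*, a complement subunit, was lower at 19–21 weeks too (-0.42, edgeR adjusted p = 0.0224). Of 24 other genes for plasma proteins that hepatocytes secrete, 6 were lower and 0 higher at 11 weeks, and 0 passed at 19–21 weeks. Over all genes tested, 7.69% were lower and 7.23% higher at 11 weeks, and 4.88% and 4.24% at 19–21 weeks. The median log2 fold changes of the 24 were -0.23 and -0.02. The 3 with the smallest p at 11 weeks were *Ahsg* (-0.67, edgeR adjusted p = 0.00291), *Kng1* (-0.37, 0.0110) and *Apoa1* (-0.54, 0.0120).

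**Figure D5:**
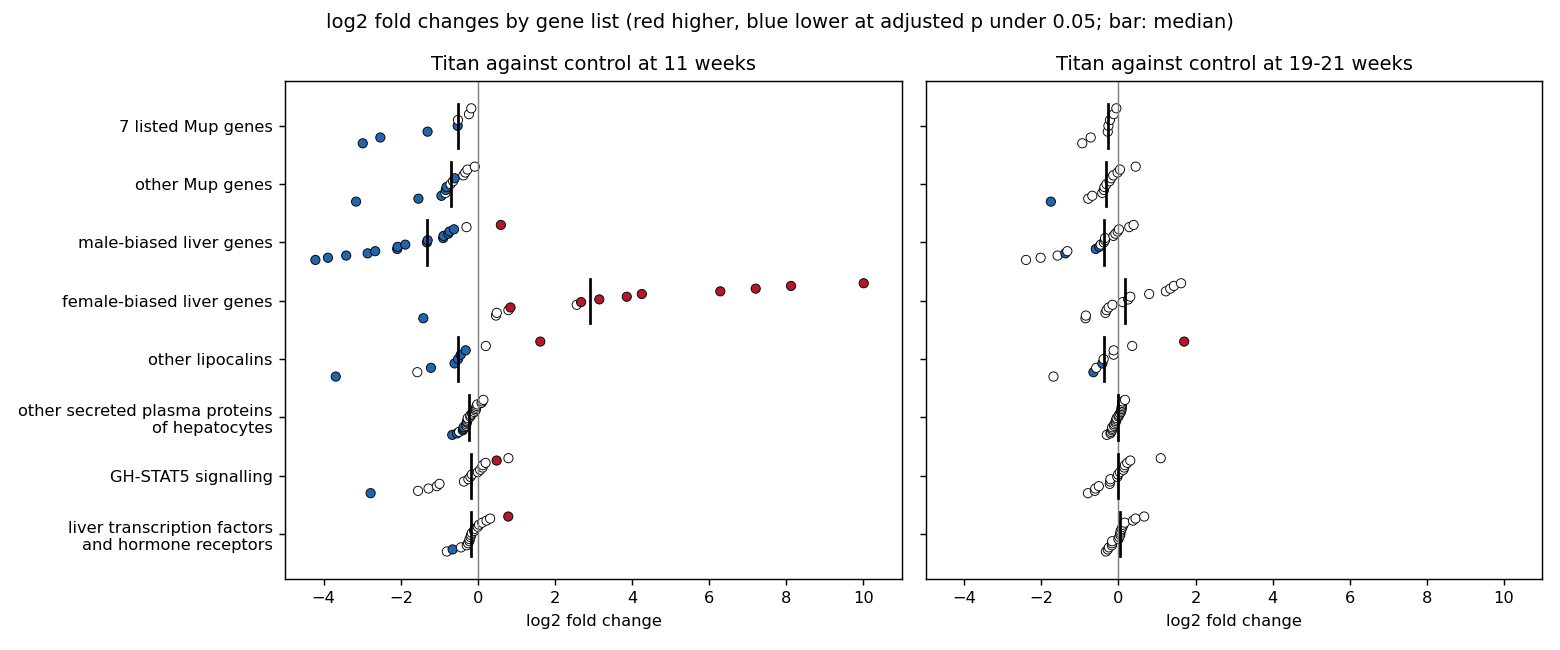
log2 fold changes of Titan against control (x axis) for the tested genes of 8 lists (y axis) at each age, with red and blue for genes higher and lower at an edgeR adjusted p under 0.05 and a bar for the median. At 11 weeks the male-biased list has a median of -1.32 and the female-biased list 2.92, and at 19–21 weeks -0.38 and 0.18.

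Markers of the cells that whole liver holds were counted in the same way. Beside them, 7.69% of all genes tested were lower and 7.23% higher at 11 weeks, and 4.88% and 4.24% at 19–21 weeks. Of 10 hepatocyte markers, 5 were lower in 11-week-old Titan mice, among them *Cyp2e1*, *Apoa1*, *Fah* and *Cps1*, while their summed level ranged from 84990 to 102500 CPM in Titan mice and from 80600 to 104800 CPM in controls. Of the 8 Kupffer cell, 5 cholangiocyte and 6 erythroid markers tested, 0 passed at either age by edgeR, by DESeq2 or in any fit without 1 mouse. Of 8 endothelial markers, *Kdr* and *Pecam1* were lower at 11 weeks and *Lyve1* and *Oit3* at 19–21 weeks. Of 8 stellate cell markers *Des* was higher at 11 weeks, and of 2 lymphocyte markers tested *Cd3e* was higher at both ages, at no more than 3.91 CPM in any mouse. The part of these in the differences of the *Mup* genes was not tested.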

How the data were processed

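Liver RNA of 20 mice (5 in each of 4 groups) was depleted of ribosomal RNA and made into strand-specific libraries. The deposited files hold read counts per gene, which the authors made with STAR 2.5.3a on GRCm38. The fourth column, for the strand that holds 96.8% to 97.5% of strand-assigned reads, was used. Reads that map to several places are not in these counts, and unmapped reads were 22.1% to 33.9%. These rows stayed out of library sizes.

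Following the study's methods, 1562 Y-linked and 92 histone genes were removed. Counts were filtered with filterByExpr, scaled by TMM and tested with the two-sided quasi-likelihood F test of edgeR 4.0.16 (R 4.3.3) in 1 fit of 4 groups, with Benjamini–Hochberg adjustment over 13783 genes. The scripts were tested on simulated data. A standard error is the log2 fold change divided by the root of F. The labels call the mice biological replicates.

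The 7 genes and all gene lists were chosen with earlier results of these data known. Named were all 7 genes, the 6 other *Mup* genes with the most reads, 7 fixed growth hormone and *Mup* regulators, in each list up to 3 called genes per direction with the smallest p, and the genes most like the 7. Some genes that this rule names are not reported here. *Mup12*, the pairing of *A1bg* with *Mup21*, the correlations without 1 mouse and the list counts under other settings were chosen after the values were seen.

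Alternatives were DESeq2 1.42.0, RLE scaling, scaling without *Mup* genes, counts over both strands, no filter, at least 10 counts in every sample, the replicate number as a block, the left-out genes kept, only the groups compared, and each mouse left out in turn. Sequences came from GENCODE M21 transcripts and a RefSeq promoter table (GRCm38.p6), and were read with Python 3.11.15.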

Additional observations from a re-analysis of the deposited data

Results flagged for a closer look

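In 3 of 56 sets of 5 mice (the 7 genes, their sum and the 6 named other *Mup* genes, in each of 4 groups), the gap between the highest or lowest mouse and its nearest neighbour was larger than Dixon's test allows at its 95% level. Chance marks about 1 in 20 sets. The same 11-week-old control mouse, with replicate number 1, stood apart for *Mup1*, at 30.8 CPM where the other 4 ranged from 12.1 to 16.2 CPM, and for *Mup20*, at 985 CPM where the others ranged from 115 to 354 CPM. The 19–21-week-old Titan mouse with replicate number 1 stood apart for *Mup20*, at 310 CPM where the others ranged from 82.4 to 119 CPM.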

How the results depend on the processing

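The count of called genes among the 7 was 4 at 11 weeks under all 9 other settings. With DESeq2 it was 1 in place of 0 between the ages in Titan mice and for the interaction, and in a fit of only the groups compared it was 1 in place of 0 at 19–21 weeks, in each case *Mup21*. Over fits that each left out 1 mouse the count ranged from 2 to 4 at 11 weeks (2 without the Titan mouse with replicate number 2), from 0 to 1 at 19–21 weeks (1 without the 11-week-old Titan mouse with replicate number 5), and from 0 to 1 between the ages in Titan mice and for the interaction (1 without the 11-week-old Titan mouse with replicate number 4). It was 0 throughout between the ages in controls. The causes were not tested.

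Log2 fold changes changed sign in some of these fits, always for genes that did not pass. They ranged from -0.33 to 0.0796 (*Mup1*) at 11 weeks. At 19–21 weeks the ranges were -0.26 to 0.0123 (*Mup11*), -0.43 to 0.0773 (*Mup17*) and -0.53 to 0.11 (*Mup20*). Between the ages they were -0.15 to 0.13 (*Mup1*) in Titan mice and -0.10 to 0.33 (*Mup1*), -0.11 to 0.17 (*Mup7*) and -0.10 to 0.17 (*Mup17*) in controls. For the interaction they were -0.34 to 0.10 (*Mup1*) and -0.0874 to 0.18 (*Mup11*). No sign changed under the other settings. Group means of the summed CPM moved by less than 1 SD.

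Replicate numbers did not pair the mice: same-numbered mice had deviations with r from -0.14 to 0.18 (median -0.00085, 30 pairs), and 4 of 20 correlated best with their own number. With the replicate block, 4 genes were called at 11 weeks (*Mup21* -3.17, *Mup20* -2.32) and 0 in every other comparison.

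Depth limits *Mup11* most, at 43 to 147 reads a mouse. The list counts were repeated under the same settings and leave-outs, chosen after the data were seen. At 11 weeks 13 to 16 male-biased genes were lower, and 2 to 12 female-biased genes were higher (2 of the 4 tested with at least 10 counts in every sample, 12 of the 22 tested without a filter). Of the plasma protein genes 3 to 10 were lower (10 with DESeq2), and of the endothelial markers 0 to 2.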
